A study of Mus musculus with 7 samples.

Results

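The genes described here are 10 sensors, adaptors and effectors of innate immunity: the Toll-like receptor genes Tlr2, Tlr4, Tlr7 and Tlr13, the adaptor gene Myd88, and the inflammasome genes Nlrp3, Pycard, Casp1, Gsdmd and Il18. They were chosen by name, and each was found once by its symbol among the 48820 gene identifiers of the count table. All 10 passed the filter on low counts, which left 16764 genes for the test. RNA-seq was done on whole tibialis anterior (TA) muscle, a muscle of the front of the shin, from male mice aged 7 weeks and killed 3 days after an injury by barium chloride (BaCl2), a salt that destroys muscle fibres. The control group held 3 libraries of genotype WT; Pax7-CreERT2 and the Sirt7 scKO group 4 libraries of genotype Sirt7fl/fl; Pax7-CreERT2. Both groups therefore carried Pax7-CreERT2, a Cre recombinase that acts only with its drug and that the Pax7 gene drives in muscle stem cells. Floxed Sirt7, the gene of a NAD-dependent deacylase, can be cut by it in those cells and their descendants, while the RNA measured here came from every cell of the muscle. Uninjured muscle was not analysed here, so no level below can be set against a state before injury.

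Toll-like receptors bind microbial molecules and molecules that dying cells release. Most of them pass the signal to the adaptor MYD88, which leads to the factor NF-kB and to transcription of inflammatory genes. Inflammasomes are protein complexes inside the cell, in which the sensor NLRP3 gathers the adaptor ASC (gene Pycard) and caspase-1 (gene Casp1). Caspase-1 then cuts gasdermin D, which forms pores in the cell membrane, and the precursors of the cytokines interleukin-18 and interleukin-1 beta. In injured muscle, infiltrating monocytes and macrophages are a main source of these genes. RNA levels say nothing about whether a complex was assembled or a protein cut.

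None of the 10 genes passed the test between Sirt7 scKO and control (quasi-likelihood F test of edgeR, Benjamini-Hochberg adjusted p of 0.05), against 0.131% of all tested genes (0.101% higher and 0.0298% lower in Sirt7 scKO). At an unadjusted p under 0.05 there was 1 of 10, Tlr7, against 13.6% of all tested genes (6.69% higher and 6.94% lower). DESeq2 and limma voom also passed none at the adjusted threshold and had 1 each at an unadjusted p under 0.05, where the 13.6% is the share in edgeR only. In none of the 10 did the groups stand apart without overlap, which 12.2% of all tested genes did (6.51% with Sirt7 scKO higher and 5.71% lower). The 95% interval of every one of the 10 lay within a 1.5-fold difference in both directions, as it did for 64.1% of all tested genes. The log2 fold changes ran from -0.17 to 0.26, with 6 positive and 4 negative and a median of 0.08, against a median of 0.01 over all tested genes. Levels below are in CPM, counts scaled to a common library size with the TMM factor of each library, and given as mean ± SD over the 3 control and 4 Sirt7 scKO libraries. Differences are log2 fold changes of Sirt7 scKO relative to control, given ± the standard error (SE) that the fit assigns and followed by their 95% interval.

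Total counts were 5601699 to 5777563 in the control libraries and 5425095 to 7553137 in the Sirt7 scKO libraries. Sirt7 itself, read as a check of the labels, was 46.2, 70.6 and 57.3 CPM in control and 39.7, 34.1, 47.9 and 53.0 CPM in Sirt7 scKO, so the groups overlapped (difference -0.42 in log2 units, adjusted p = 0.288 in edgeR). In whole muscle that level covers all cells and the whole gene, so it is a weak check of a deletion in stem cells. The 12 monocyte and macrophage markers summed to 10035 to 10627 CPM in control and to 10083 to 12076 CPM in Sirt7 scKO, with none at 0. Most of that sum was Lyz2 (6718 ± 210 against 7298 ± 681 CPM). The median log2 fold change was 0.01, with 6 positive and 6 negative, from -0.46 (Ly6c2) to 0.46 (Mertk). Mertk was the 1 of 12 at an unadjusted p under 0.05 in edgeR, beside 6.69% of all tested genes higher. The 9 neutrophil markers summed to 149 to 163 CPM and 148 to 222 CPM, and their defining gene Ly6g had no count in any library. The 8 markers of T, NK and B cells summed to at most 14.5 CPM. The 7 markers of fibro-adipogenic progenitors (precursors of fibrous and fat cells) summed to 877 to 992 CPM in control and 725 to 954 CPM in Sirt7 scKO. All 7 markers had negative log2 fold changes (median -0.14), and none passed the adjusted threshold. At an unadjusted p under 0.05 in edgeR 2 were lower, beside 6.94% of all tested genes. Dendritic, endothelial and muscle stem cell markers were mixed in sign. The 8 markers of mature fibres summed to 1807 to 4594 CPM in control and 524 to 3125 CPM in Sirt7 scKO. All 8 had negative log2 fold changes, with a median of -1.09. Of these 5 were lower at an unadjusted p under 0.05 in edgeR, beside 6.94% of all tested genes, and none passed the adjusted threshold. The part of that spread in fibre markers in any result below was not tested. Fewer cells of a type and less RNA per cell cannot be told apart in these samples.

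**Figure D1:**
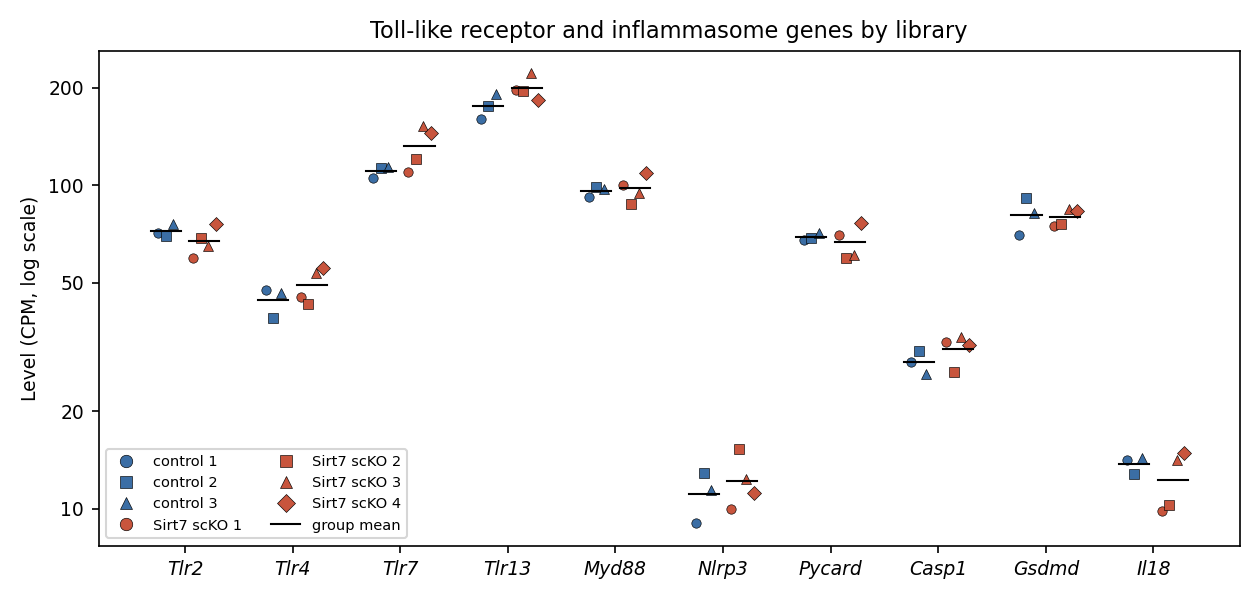
Level of each of the 10 genes in CPM on a log axis, with 1 point per library (blue, 3 control; red, 4 Sirt7 scKO; the shape marks the replicate number) and a bar at the group mean. The groups overlap in every gene, and the genes span from about the level of Nlrp3, with a control mean of 11.1 CPM, to that of Tlr13, with 176 CPM.

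Of the receptors of the cell surface, Tlr2 forms pairs with Tlr1 or Tlr6 and binds lipoproteins. Tlr2 (ENSMUSG00000027995.10, GRCm38 chromosome 3, 83836272 to 83841767, minus strand) was 71.2, 69.5 and 76.0 CPM in the control libraries, in order of their replicate numbers 1 to 3, and 59.5, 68.9, 64.7 and 75.9 CPM in the Sirt7 scKO libraries, 1 to 4. Sirt7 scKO replicates 1 to 3 lay below all control libraries, and replicate 4 stood with the highest of them. The means were 72.3 ± 3.38 and 67.2 ± 6.92 CPM (difference -0.11 ± 0.0978 in log2 units, interval from -0.32 to 0.11, adjusted p = 0.676 in edgeR). Tlr4 encodes the receptor for bacterial lipopolysaccharide, which also answers to molecules of damaged tissue. Tlr4 (ENSMUSG00000039005.13, chromosome 4, 66827584 to 66930284, plus strand) was 47.4, 39.0 and 46.3 CPM in control and 45.3, 43.0, 53.6 and 55.4 CPM in Sirt7 scKO. Sirt7 scKO replicates 3 and 4 lay above all control libraries and replicates 1 and 2 among them (means 44.2 ± 4.57 and 49.3 ± 6.09 CPM, difference 0.15 ± 0.119 in log2 units, interval from -0.10 to 0.41, adjusted p = 0.602 in edgeR).

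The receptors of the endosome, which bind RNA, were the 2 genes of the 10 with the smallest p. Tlr7 encodes the receptor for single-stranded RNA. Tlr7 (ENSMUSG00000044583.13, chromosome X, 167304929 to 167330558, minus strand) was 105, 113 and 114 CPM in control and 110, 121, 153 and 145 CPM in Sirt7 scKO. Sirt7 scKO replicate 1 lay within the control range and the other 3 lay above it. The means were 111 ± 4.93 and 132 ± 20.1 CPM (log2 fold change 0.26, SE 0.111), and the edgeR adjusted p was 0.336. The 95% interval for this gene alone, 0.01 to 0.50, corresponds to folds of 1.01 to 1.41. Tlr13 encodes a receptor that mice have and humans lack, which binds a sequence of bacterial ribosomal RNA. Tlr13 (ENSMUSG00000033777.3, chromosome X, 106143204 to 106160493, plus strand) was 160, 176 and 192 CPM in control and 197, 195, 222 and 183 CPM in Sirt7 scKO. Sirt7 scKO replicate 4 lay within the control range and the other 3 lay above it, replicate 3 the farthest (means 176 ± 16.2 and 199 ± 16.1 CPM, difference 0.18 ± 0.0916 in log2 units, interval from -0.02 to 0.38, adjusted p = 0.421 in edgeR).

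The adaptor gene Myd88 (ENSMUSG00000032508.8, chromosome 9, 119335934 to 119341411, minus strand) was the steadiest of the 10 over the 7 libraries, with a coefficient of variation of 6.98%. It stood at 91.7, 98.8 and 97.4 CPM in control and 100, 87.4, 94.6 and 109 CPM in Sirt7 scKO. The lowest and the highest library were both Sirt7 scKO. The means were 96.0 ± 3.75 and 97.7 ± 8.97 CPM (difference 0.02 ± 0.0896 in log2 units, interval from -0.17 to 0.22, adjusted p = 0.932 in edgeR). Myd88 shares 290 bases of exon with Acaa1a on the other strand, and reads from those bases cannot be assigned without strand.

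Nlrp3, the inflammasome sensor gene (ENSMUSG00000032691.14, chromosome 11, 59541568 to 59566956, plus strand), had the fewest counts relative to its length and was the most variable of the 10. It was 9.03, 12.9 and 11.4 CPM in control and 9.99, 15.3, 12.4 and 11.2 CPM in Sirt7 scKO, from 52 to 117 counts per library. Sirt7 scKO replicate 2 was highest and control replicate 1 lowest (means 11.1 ± 1.96 and 12.2 ± 2.29 CPM, difference 0.14 ± 0.189 in log2 units, interval from -0.27 to 0.55, adjusted p = 0.785 in edgeR). Pycard, whose product ASC joins sensor and protease (ENSMUSG00000030793.4, chromosome 7, 127989708 to 127993867, minus strand), was 67.8, 68.8 and 71.3 CPM in control and 70.1, 59.4, 60.8 and 76.6 CPM in Sirt7 scKO. The control libraries lay close together, inside the range of Sirt7 scKO (means 69.3 ± 1.82 and 66.7 ± 8.13 CPM, difference -0.06 ± 0.103 in log2 units, interval from -0.28 to 0.16, adjusted p = 0.846 in edgeR). Pycard shares 485 bases of exon with the unclassified model Gm45205 on the other strand, which had 1192 counts over all libraries against 2943 for Pycard. The split of reads between that pair is uncertain.

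Casp1, the inflammasome protease gene (ENSMUSG00000025888.5, chromosome 9, 5298517 to 5307265, plus strand), was 28.5, 30.7 and 26.1 CPM in control and 32.8, 26.4, 34.0 and 32.0 CPM in Sirt7 scKO. Sirt7 scKO replicate 2 was among the control libraries and the other 3 lay above them (means 28.4 ± 2.31 and 31.3 ± 3.35 CPM, difference 0.14 ± 0.119 in log2 units, interval from -0.12 to 0.39, adjusted p = 0.654 in edgeR). Gsdmd, the gene of the pore protein (ENSMUSG00000022575.4, chromosome 15, 75862327 to 75867408, plus strand), was 70.0, 91.6 and 82.0 CPM in control and 74.6, 76.1, 84.4 and 83.4 CPM in Sirt7 scKO. All Sirt7 scKO libraries lay inside the control range (means 81.2 ± 10.8 and 79.6 ± 5.01 CPM, difference -0.03 ± 0.102 in log2 units, interval from -0.25 to 0.19, adjusted p = 0.928 in edgeR). Il18, the cytokine gene (ENSMUSG00000039217.12, chromosome 9, 50554827 to 50581840, plus strand), was 14.2, 12.8 and 14.4 CPM in control and 9.85, 10.3, 14.2 and 14.9 CPM in Sirt7 scKO, from 70 to 95 counts per library. Sirt7 scKO replicates 1 and 2 lay below all control libraries, while replicate 3 lay among them and replicate 4 above them (13.8 ± 0.898 against 12.3 ± 2.62 CPM). The difference was -0.17 ± 0.178 in log2 units (interval from -0.56 to 0.21, adjusted p = 0.712 in edgeR).

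**Figure D2:**
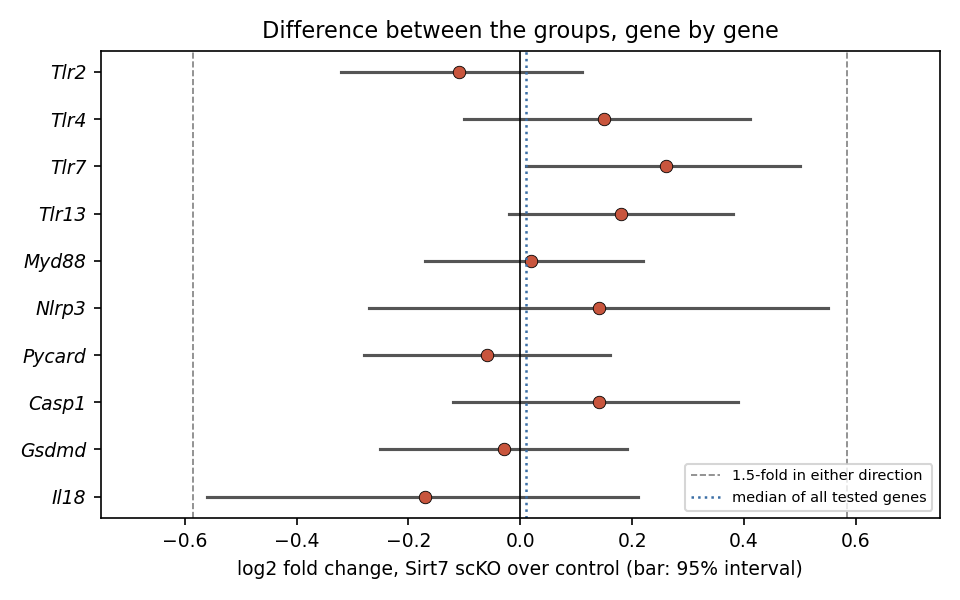
Log2 fold change of each of the 10 genes, Sirt7 scKO over control (point), with its 95% interval (bar). Dashed lines mark a 1.5-fold difference in each direction and the dotted line the median of all tested genes, 0.01. Every interval lies between the dashed lines, and that of Tlr7, from 0.01 to 0.50, is the one that does not reach 0.

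To order the genes by level, CPM was divided by the summed exon length of each gene in kilobases. Tlr13 was highest at 44.0 ± 4.45 CPM per kb over the 7 libraries, above 93.7% of the 13071 tested protein-coding genes on this scale. Myd88 followed at 37.6 ± 2.63, Gsdmd at 33.8 ± 3.04 and Tlr7 at 30.2 ± 4.54 CPM per kb, and neighbours in this order had overlapping ranges. A gap without overlap separated Tlr7 from Tlr2 at 23.0 ± 1.96 CPM per kb, which Casp1 (20.1 ± 2.08) and Pycard (17.8 ± 1.58) followed with overlapping ranges. Il18 stood at 12.6 ± 2.01 CPM per kb, with no overlap with Pycard, and Tlr4 at 8.49 ± 1.03. Nlrp3 was lowest at 2.90 ± 0.508 CPM per kb, above 27.9% of the tested protein-coding genes, and no library's Nlrp3 reached the lowest Tlr4 value. The sensor gene was thus the least abundant part of the inflammasome set in RNA, below Casp1, Pycard and Gsdmd in each of the 7 libraries. With the longest coding transcript in place of all exons, Myd88 (49.5 CPM per kb) stood above Tlr13 (46.6 CPM per kb) and the other 8 genes kept their places.

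Among all 12 Toll-like receptor genes, Tlr13 was above Tlr7 in each of the 7 libraries. Tlr2, Tlr1, Tlr8 and Tlr9 formed a group from 23.0 to 17.4 CPM per kb whose neighbours overlapped. Tlr4, Tlr6 and Tlr3 were at 8.49, 5.90 and 5.03 CPM per kb. Tlr12, Tlr5 and Tlr11 were below 2 CPM per kb. Tlr11 and Tlr12, like Tlr13, belong to a branch of the family that is functional in mice and not in humans. Tlr13 alone made up 23.1 ± 1.31% of the summed receptor level per length in control and 25.0 ± 2.23% in Sirt7 scKO.

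**Figure D3:**
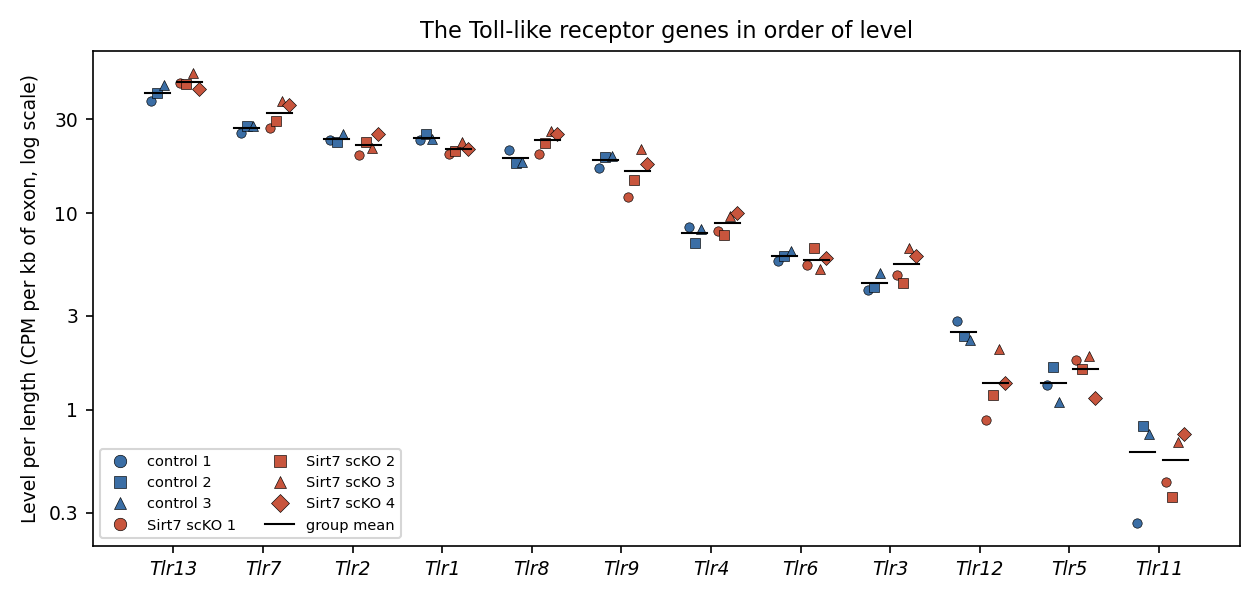
Level per length of the 12 Toll-like receptor genes in CPM per kb of exon on a log axis, ordered by the mean, with 1 point per library (blue, control; red, Sirt7 scKO) and a bar at the group mean. Tlr13 leads with 44.0 CPM per kb on average and Tlr11 is last with 0.581, and only Tlr1 and Tlr12 show every Sirt7 scKO library below every control library.

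Set against the mean log2 CPM of the 12 monocyte and macrophage markers in the same library, Tlr7 was the gene that separated the groups. That marker mean was 8.32, 8.46 and 8.42 in control and 8.25, 8.31, 8.57 and 8.47 in Sirt7 scKO. The difference of 0.00 between the group means averages markers that moved in opposite directions. Their log2 fold changes ran from -0.46 (Ly6c2) to 0.46 (Mertk), 6 positive and 6 negative. Relative to the marker mean, Tlr7 was -1.60, -1.63 and -1.58 log2 units in control and -1.46, -1.39, -1.32 and -1.28 in Sirt7 scKO. The groups did not overlap, and the mean of Sirt7 scKO was 0.24 higher. On this measure 7.47% of all tested genes had groups without overlap (3.70% with Sirt7 scKO higher), Tlr7 was the 1 member that did, and no test was made of it. Over the 7 libraries, log2 CPM of Tlr7 and the marker mean had a Pearson r of 0.76 (Spearman rho 0.68). For the other 9 members the difference in this relative level ran from -0.18 (Il18) to 0.17 (Tlr13), and their groups overlapped. Gsdmd (r = 0.77) and Il18 (r = 0.69) followed the marker mean about as closely as Tlr7, and Pycard did not (r = -0.04). These correlations are descriptions over 7 libraries, in which both measures share the depth of the library.

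**Figure D4:**
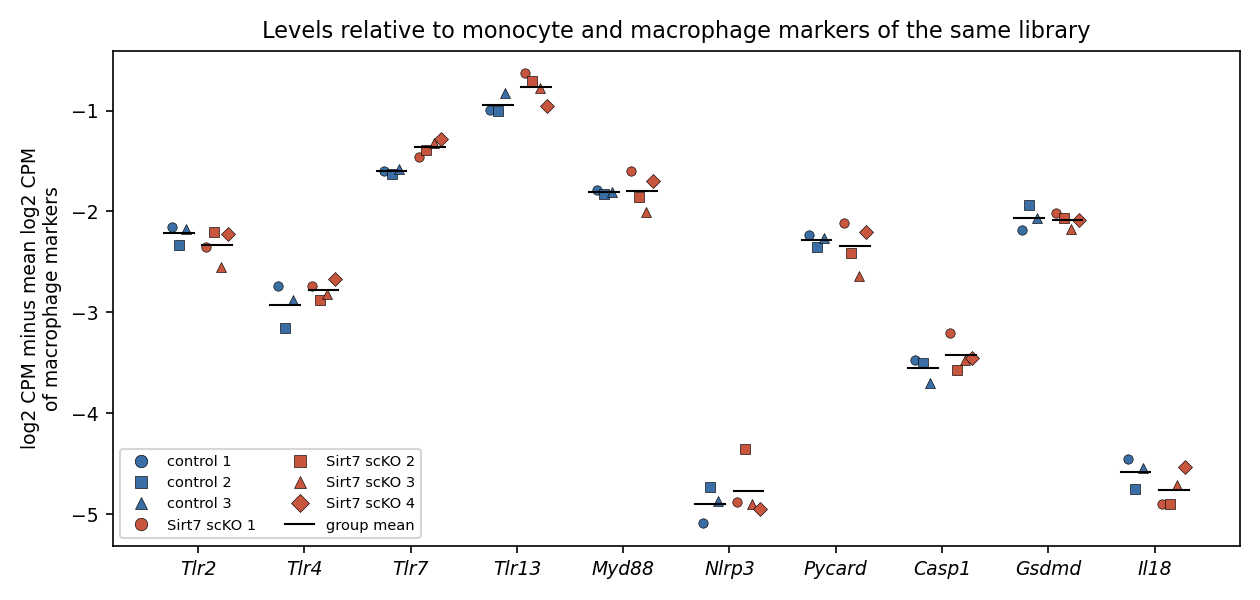
Log2 CPM of each of the 10 genes minus the mean log2 CPM of 12 monocyte and macrophage markers of the same library, with 1 point per library (blue, control; red, Sirt7 scKO) and a bar at the group mean. The Tlr7 points of Sirt7 scKO, from -1.46 to -1.28, all lie above those of control, from -1.63 to -1.58, while the groups overlap in the other 9 genes.

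The 10 genes did not vary as 1 block from library to library. The closest pair was Myd88 and Pycard, with a Pearson r of 0.86 (Spearman rho 0.86) for log2 CPM over the 7 libraries. Tlr2 and Il18 had the same rank correlation with a lower r (r = 0.69, rho 0.86). Tlr4 was most like Tlr7 (r = 0.73), with a rho of 0.43. Nlrp3 and Pycard, which meet in 1 complex, had an r of -0.57, and Tlr2 and Casp1 an r of -0.55. Over 11503 protein-coding genes with a mean of at least 5 CPM, the 5 most like Tlr7 were Cept1 (r = 0.99), Creg1 (0.99), Ms4a6b (0.98), G3bp2 (0.98) and Creb1 (0.98). The 5 most like Nlrp3, the member with the largest spread, were Tmem131l (r = 0.95), Zc3h6 (0.95), Snn (0.94), Fhl2 (0.93) and Pgm2l1 (0.92). These are the highest of 11503 values over 7 points each, and name neighbours in pattern only.

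The promoters of the 4 genes in the pairs Myd88 with Pycard and Tlr2 with Il18 are shown, because these pairs had the highest rank correlation among the closest partners of the 10 genes. Each sequence runs from 250 bases before to 50 bases after the transcription start of RefSeq (GRCm38.p6), read along the gene's own strand. The windows are chr9:119339969-119340268 (minus strand) for Myd88, chr7:127993818-127994117 (minus) for Pycard, chr3:83841559-83841858 (minus) for Tlr2 and chr9:50554450-50554749 (plus) for Il18. Capitals mark matches on either strand to the core sequence of the myeloid factor PU.1 (GAGGAAGT), to the interferon-stimulated response element (searched as GAAA, any 2 bases and GAAA again) or to the NF-kB consensus.
Myd88: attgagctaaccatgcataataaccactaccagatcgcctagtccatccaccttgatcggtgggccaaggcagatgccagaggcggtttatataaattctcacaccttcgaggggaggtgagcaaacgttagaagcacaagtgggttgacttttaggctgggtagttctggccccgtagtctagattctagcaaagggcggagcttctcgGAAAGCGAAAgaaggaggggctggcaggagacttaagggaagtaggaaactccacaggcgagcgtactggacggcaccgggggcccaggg
Pycard: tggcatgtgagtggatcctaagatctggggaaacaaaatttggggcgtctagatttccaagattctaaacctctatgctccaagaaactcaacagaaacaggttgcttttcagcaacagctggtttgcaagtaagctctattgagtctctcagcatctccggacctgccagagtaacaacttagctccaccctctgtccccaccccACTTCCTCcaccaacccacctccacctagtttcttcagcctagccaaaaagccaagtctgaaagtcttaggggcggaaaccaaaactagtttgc
Tlr2: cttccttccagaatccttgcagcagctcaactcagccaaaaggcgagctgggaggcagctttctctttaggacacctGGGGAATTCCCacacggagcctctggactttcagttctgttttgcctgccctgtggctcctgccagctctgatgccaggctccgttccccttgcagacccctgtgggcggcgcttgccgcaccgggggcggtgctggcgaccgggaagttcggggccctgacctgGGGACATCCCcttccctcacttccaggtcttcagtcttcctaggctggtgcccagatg
Il18: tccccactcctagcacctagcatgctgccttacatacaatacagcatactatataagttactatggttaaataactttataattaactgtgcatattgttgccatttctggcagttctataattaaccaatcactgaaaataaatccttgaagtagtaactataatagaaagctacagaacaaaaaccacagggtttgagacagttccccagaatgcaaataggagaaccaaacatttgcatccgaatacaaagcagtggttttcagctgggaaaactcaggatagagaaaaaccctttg
The Myd88 window held the interferon element, which begins 40 bases before the start and which 3.44% of all 32851 windows of this length hold. The Pycard window held the PU.1 core on the other strand, 44 bases before the start, against 3.20% of all windows. The Tlr2 window held the NF-kB consensus at 2 places, of which the upstream one was matched in 2 overlapping positions, against 8.46% of all windows with at least 1 match. None of the motifs was found in these letters of the Il18 window. The 2 genes of a pair did not share a match to the motifs searched. Windows were also at hand for Casp1, Nlrp3 and Tlr13, of which the upstream Nlrp3 window matched the NF-kB consensus. No window was at hand for Tlr4, Tlr7 and Gsdmd, so their promoters were not searched.

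The other genes of the pathway, 104 in 9 lists, were read from the same test. Of these 95 were tested, and none passed an edgeR adjusted p of 0.05, with 16 at an unadjusted p under 0.05 (7 higher and 9 lower), beside 13.6% of all tested genes (6.69% higher and 6.94% lower). Their median log2 fold change was -0.03. The groups did not overlap in 17 of the 95 (8 with Sirt7 scKO higher and 9 lower), beside 12.2% of all tested genes. DESeq2 and limma voom also passed none, with 9 and 15 at an unadjusted p under 0.05. The share of all tested genes at that p is given for edgeR only, so these counts have no background beside them. The 3 genes with the smallest p in each list are named below with their values, none of which passed.

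In the list of other Toll-like receptors, 3 of 8 were positive (median -0.11). The leading gene by p was Tlr12, whose product senses a profilin of parasites, with 9.03, 7.55 and 7.18 CPM in control and 2.81, 3.79, 6.44 and 4.35 CPM in Sirt7 scKO (difference -0.87 ± 0.263 in log2 units, adjusted p = 0.196 in edgeR). It rests on 20 to 52 counts per library. Tlr8 stood at 74.9, 64.3 and 65.2 CPM in control and 71.3, 81.9, 93.6 and 90.8 CPM in Sirt7 scKO (difference 0.31 ± 0.108 in log2 units, adjusted p = 0.253 in edgeR). Tlr8 is the next coding gene to Tlr7 on chromosome X, 40599 bases away, and the 2 genes had an r of 0.84 (rho 0.68) over the 7 libraries, with Sirt7 scKO replicates 3 and 4 highest in both. Tlr1, the partner of Tlr2, was 80.9 ± 3.20 against 71.1 ± 4.44 CPM (difference -0.19 in log2 units, adjusted p = 0.362 in edgeR) without overlap of the groups, next to a log2 fold change of -0.11 for Tlr2 itself.

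Of the co-receptors and transport proteins, 3 of 9 were positive (median -0.09). The scavenger receptor Cd36, a co-receptor of Tlr2 that endothelial and fat cells also make, was 383, 385 and 464 CPM in control and 622, 491, 533 and 470 CPM in Sirt7 scKO. The groups did not overlap (difference 0.37 ± 0.110 in log2 units, adjusted p = 0.194 in edgeR). Hsp90b1, the chaperone that folds most Toll-like receptors, was 535 ± 11.1 against 621 ± 37.3 CPM (difference 0.21 in log2 units, adjusted p = 0.271 in edgeR). Unc93b1, which carries the RNA-binding and DNA-binding receptors to endosomes, was 594 ± 45.2 against 515 ± 108 CPM (difference -0.21 in log2 units, adjusted p = 0.534 in edgeR). Of the endosomal receptors, Tlr3, Tlr7, Tlr8 and Tlr13 had positive and Tlr9, Tlr11 and Tlr12 negative log2 fold changes. Hsp90b1 overlaps a transcript of the other strand and a small RNA, so part of its reads is uncertain.

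The 14 adaptors and kinases below the receptors split evenly, 7 positive and 7 negative, with a range from -0.21 to 0.20 on the log2 scale. Traf3, a ubiquitin ligase that steers the signal toward interferon, was 67.3 ± 1.94 against 58.4 ± 4.24 CPM (edgeR adjusted p = 0.341). The ubiquitin-conjugating enzyme Ube2n, which works with TRAF6, was 54.1 ± 3.55 against 62.1 ± 2.19 CPM (edgeR adjusted p = 0.350), and the kinase Irak4, which binds MYD88, 46.4 ± 1.56 against 42.8 ± 3.90 CPM (edgeR adjusted p = 0.655). Irak4 shares 395 bases of exon with Twf1 on the other strand, so part of its reads is uncertain. For NF-kB and its inhibitors, 8 of 12 were negative (median -0.12). The inhibitor genes Nfkbib (32.4 ± 2.16 against 26.9 ± 2.03 CPM, edgeR adjusted p = 0.306) and Nfkbie (30.5 ± 3.00 against 25.4 ± 2.55 CPM, edgeR adjusted p = 0.351) and the subunit gene Relb (33.0 ± 5.22 against 27.0 ± 0.842 CPM, edgeR adjusted p = 0.313) led by p. In these 3 every Sirt7 scKO library lay below every control library, as in 5.71% of all tested genes. In 1 more of the 12, Nfkbiz, an atypical member of the inhibitor family singled out for its values, every Sirt7 scKO library lay above (20.3 ± 0.267 against 22.8 ± 1.59 CPM, adjusted p = 0.540 in edgeR). Nfkbib shares 314 bases of exon with Ccer2 and 42 with Sirt2, both on the other strand.

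Of the brakes on the pathway 9 of 11 tested genes were negative, with a median of -0.03. Il18bp encodes a secreted protein that binds and blocks interleukin-18. It was 40.1, 37.9 and 42.6 CPM in control and 23.8, 24.9, 34.6 and 35.6 CPM in Sirt7 scKO (difference -0.45 ± 0.146 in log2 units, adjusted p = 0.225 in edgeR). The groups did not overlap, with replicates 1 and 2 lowest, the same libraries that were lowest for Il18. Il18bp shares 80 bases of exon with Numa1 on the other strand. Nlrc3, an inhibitor of cytosolic nucleic acid sensing, was 18.3 ± 0.466 against 20.3 ± 1.09 CPM (edgeR adjusted p = 0.608), and Tnip1, a partner of the deubiquitinase A20, 41.5 ± 3.30 against 38.3 ± 1.28 CPM (edgeR adjusted p = 0.631).

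Among other inflammasome and cytosolic sensors, 6 of 11 tested genes were positive (median 0.08). The groups did not overlap in 4 of the 11 (Naip2 and Naip6 with Sirt7 scKO higher, Nod2 and Nlrp1b lower), beside 12.2% of all tested genes. Nod2, the sensor of a bacterial cell-wall peptide, had the smallest p of the 95 genes, with 17.2, 19.4 and 13.8 CPM in control and 8.86, 11.4, 12.6 and 8.32 CPM in Sirt7 scKO. The groups did not overlap (difference -0.70 ± 0.182 in log2 units, adjusted p = 0.139 in edgeR). Naip6, of the sensors that bind parts of bacteria for NLRC4, was 27.9 ± 1.97 against 33.1 ± 3.30 CPM (edgeR adjusted p = 0.362), and Nlrp1b, another inflammasome sensor, 26.0 ± 1.58 against 22.3 ± 2.45 CPM (edgeR adjusted p = 0.459). The Naip and Nlrp1 genes have near-identical copies, so their counts are uncertain. In the list of execution and output, 6 of 10 tested genes were positive (median 0.03). Ninj1, whose product ruptures the membrane after gasdermin pores form, was 206, 213 and 214 CPM in control and 177, 167, 163 and 231 CPM in Sirt7 scKO (adjusted p = 0.473 in edgeR). Without Sirt7 scKO replicate 4, the highest library, it passed (difference -0.32 in log2 units, adjusted p = 0.0425 in edgeR). That fit passed 330 of 16794 genes, against 22 of 16764 with all libraries, and Ninj1 was the 1 pathway gene among the 330. The receptor subunit Il18rap was 8.57 ± 1.23 against 10.5 ± 1.32 CPM (edgeR adjusted p = 0.508) and Casp4, mouse caspase-11, 12.3 ± 1.94 against 14.6 ± 1.80 CPM (edgeR adjusted p = 0.554). Il1b, the other cytokine that caspase-1 cuts and a gene singled out after its values were seen, stood at 0.937 CPM per kb, with 8 to 18 counts per library, against 12.6 CPM per kb for Il18.

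Genes that Toll-like receptors induce were split evenly, 6 positive and 6 negative of 12 tested, with a median of 0.01. The chemokine genes Ccl5 (5.23 ± 1.19 against 2.97 ± 1.35 CPM, edgeR adjusted p = 0.318), Ccl2 (64.6 ± 18.9 against 71.8 ± 14.1 CPM, edgeR adjusted p = 0.759) and Ccl3 (15.1 ± 0.633 against 16.7 ± 3.58 CPM, edgeR adjusted p = 0.759) had the smallest p. Ccl5 rests on 12 to 34 counts per library, and the groups overlapped in all 3. Another 5 of this list, Il6, Il12b, Cxcl2, Saa3 and Lcn2, had too few counts for the test. Of 8 genes for ligands that the body itself makes for these receptors, 6 were positive (median 0.07). S100a9, whose product binds TLR4 together with that of S100a8, was 1.29 ± 0.704 against 3.41 ± 1.10 CPM (adjusted p = 0.183 in edgeR), from 5 to 38 counts per library. S100a8 was 1.91, 2.16 and 1.93 CPM in control and 5.21, 4.71, 3.59 and 2.84 CPM in Sirt7 scKO (adjusted p = 0.185 in edgeR), from 11 to 37 counts per library. The groups did not overlap in either gene, as in 6.51% of all tested genes with Sirt7 scKO higher. Both are also on the neutrophil marker list. Of that list 4 of 6 tested genes were higher at an unadjusted p under 0.05 in edgeR, beside 6.69% of all tested genes. S100a8 and S100a9 are themselves among these 4, with Mmp9 and Clec4d. The remaining tested markers, Csf3r and Mmp8, had negative log2 fold changes (-0.17 and -0.20). Of the markers too low in count to test, Cxcr2 had 0, 4 and 4 counts in control and 14, 14, 11 and 9 counts in Sirt7 scKO. Retnlg had 0 to 2 counts per library, and Ly6g had none. The part of neutrophils in these values was not tested. Tnc, the gene of the matrix protein tenascin-C, was 178 ± 38.1 against 213 ± 80.0 CPM (edgeR adjusted p = 0.645).

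**Figure D5:**
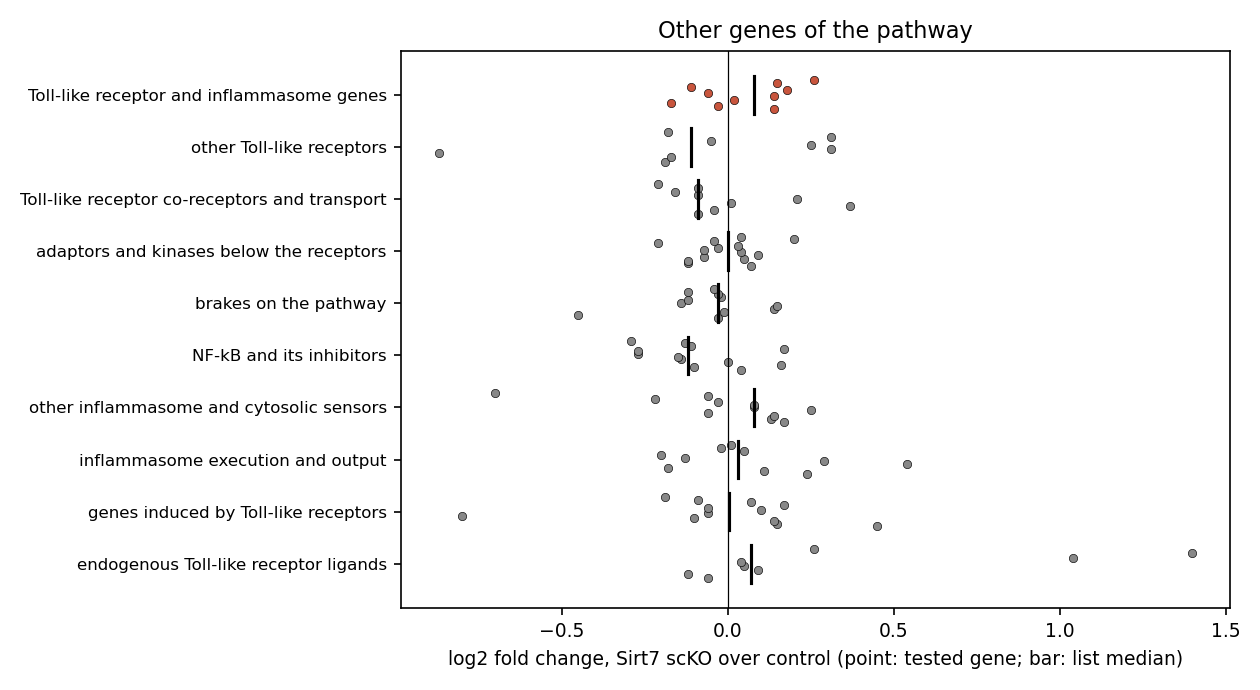
Log2 fold change, Sirt7 scKO over control, of every tested gene of the 10 described genes (red, top row) and of 9 lists of other pathway genes (grey), with a black bar at the median of each list. The list medians lie between -0.12 and 0.08, and the points farthest out, S100a9 at 1.40, S100a8 at 1.04 and Tlr12 at -0.87, belong to genes of low count.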

How the data were processed

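RNA of whole muscle was measured in 7 libraries, grouped by their labels. Per the labels, libraries were made with an NEBNext Ultra kit, which does not mark strand. The submitters' processing notes name fastp, Bowtie2, featureCounts and GRCm38 (mm10); settings for strand and multiple alignments are not given in those notes or labels. The deposited values are raw counts per gene and library, which were checked to be whole numbers. Of 48820 identifiers, 48144 matched GENCODE mouse release 21 without the version.

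Genes were filtered with filterByExpr (minimum count 10, minimum total 15), scaled by TMM and fitted in edgeR 4.0.16 (R 4.3.3), whose quasi-likelihood F test was Benjamini-Hochberg adjusted over 16764 genes. The common dispersion was 0.0142. The SE is the fold change divided by the square root of F. Log2 CPM used a prior count of 2. The test was checked on simulated data. DESeq2 1.42.0, limma voom 3.58.1 and other settings were alternatives. The labels call the libraries of a group biological replicates.

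The 10 genes, the lists, the markers and the naming rule (all 10 genes, and in each list the 3 with the smallest p) were chosen with earlier results of these data known. Motifs were chosen after the counts were seen. Counts per library limit precision for genes under about 100 counts, such as Nlrp3 and Il18.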

Additional observations from a re-analysis of the deposited data

Results flagged for a closer look

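Among 37 genes looked at in the 4 Sirt7 scKO libraries (the 10 described genes and 27 named pathway genes), 2 had 1 library far from the other 3 by Dixon's ratio, about what chance gives at 1 in 20. Hsp90b1 was 676 CPM in Sirt7 scKO replicate 2 and 597 to 606 CPM in the others. Tnip1 was 36.4 CPM in Sirt7 scKO replicate 3 and 38.8 to 39.0 CPM in the others, a narrow range. None of the 10 described genes had such a library.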

How the results depend on the processing

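None of the 10 described genes passed the threshold under any of the 14 alternatives, and their lowest adjusted p was 0.181, for Tlr7 without Sirt7 scKO replicate 1. Of 140 refits of the 10 genes, 4 turned the sign, all of fold changes near 0: Myd88 (0.02 as reported) was -0.03 with the replicate block and ran from -0.03 to 0.08 when 1 library was left out, and Gsdmd ran from -0.13 to 0.07. Among the named pathway genes, Ccl2 ran from -0.04 to 0.39, Ccl3 from -0.00 to 0.26 and Tnc from -0.02 to 0.45 when 1 library was left out. Tlr7 ran from 0.18 to 0.33, and was not at an unadjusted p under 0.05 without control replicate 1, 2 or 3, without Sirt7 scKO replicate 3 or 4, or with the replicate block.

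The number of pathway genes past the threshold, 0, became 4 with no filter (Tlr12, Cd36, Nod2 and S100a9) and 2 with the replicate block (Cd36 and Il18bp), and ran from 0 to 1 when 1 library was left out (Ninj1, without Sirt7 scKO replicate 4). Over all genes the count of 22 became 35 with total-count scaling, 56 with robust dispersion, 149 with DESeq2, 537 with the replicate block and 585 with no filter. It ran from 0 (without control replicate 2) to 330 (without Sirt7 scKO replicate 4), and the cause was not tested. The deviations of same-numbered libraries from their group means correlated at r = 0.123, -0.074 and 0.096, and not every library was most like its own number, so the numbers were not taken as pairs.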

Other observations

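The receptors of the endosome (Tlr3, Tlr7, Tlr8, Tlr9, Tlr11, Tlr12 and Tlr13) and those of the surface (Tlr1, Tlr2, Tlr4, Tlr5 and Tlr6) were also summed per length, a grouping made after the values were seen and given with no test. The endosomal share of the summed level was 63.3, 64.2 and 64.6% in control and 66.8, 66.5, 70.4 and 67.1% in Sirt7 scKO, so every Sirt7 scKO library was above every control library. Within the library this share does not depend on scaling. How often the share of such a sum of genes separates the groups was not computed. Taken singly in CPM, 12.2% of all tested genes had groups without overlap (6.51% with Sirt7 scKO higher). The endosomal sum was 113 ± 5.21 against 126 ± 15.1 CPM per kb, and the surface sum 63.5 ± 1.13 against 59.9 ± 3.47 CPM per kb. The endosomal genes did not all go 1 way, since Tlr12, Tlr9 and Tlr11 had negative log2 fold changes (-0.87, -0.18 and -0.17).

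Il6, a cytokine gene that Toll-like receptors induce and that muscle cells, fibroblasts and macrophages can all make, had too few counts for the test. Il6, and Cxcl2 below, were singled out for their values from the pathway genes too low in count to test. Il6 had 2, 1 and 5 counts in control and 11, 11, 12 and 13 counts in Sirt7 scKO. The groups did not overlap in CPM. The share without overlap, 6.51% with Sirt7 scKO higher, covers tested genes only. It was not computed for genes too low in count to test. With no filter the log2 fold change of Il6 was 1.89, with an unadjusted p of 0.00198 and an adjusted p of 0.0778 in edgeR. That fit passed 585 of 28443 genes, against 22 of 16764 with the filter, and Il6 was not among them. Cxcl2, another induced gene, went the other way at 5, 4 and 4 counts against 4, 1, 1 and 0 (edgeR adjusted p = 0.488 with no filter).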
